A study of Mus musculus with 12 samples.

Results

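Growth hormone acts on the liver through a receptor, a pair of STAT5 transcription factors, the IGF-1 that hepatocytes secrete, and feedback inhibitors that switch the receptor off again. The 10 genes described here were taken from that axis by name: the receptor Ghr, the transducers Stat5a and Stat5b, Igf1 with its carriers Igfals and Igfbp2, the feedback genes Socs2 and Cish, and the secreted urinary proteins Mup3 and Mup20. Their Ensembl identifiers gave 10 rows of the 46078 in the count table, and all 10 passed the filter on low counts that left 13054 genes to test. In this pathway growth hormone bound to its receptor activates the kinase JAK2, which phosphorylates STAT5, and STAT5 in the nucleus switches on Igf1, Igfals, Socs2 and Cish. In male rodents the hormone is released in pulses, in females more evenly, and that rhythm sets which liver genes, the major urinary protein (Mup) genes among them, are expressed more strongly in either sex. Food restriction is known to lower hepatic growth hormone action and to alter binding proteins of the IGF family.

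Livers came from male mice labelled C57BL/6 (C57BL/6J in the study's methods), aged 21 weeks with diet-induced obesity, all of which had an operation and were killed on day 16 after it, following 5 hours without food. Vertical sleeve gastrectomy (VSG) removed most of the stomach. Sham-WM mice had sham surgery and then restricted food so that their weight matched that of the VSG mice. Sham-Ad lib mice had sham surgery and returned to unrestricted high-fat diet. By the study's methods, the operated mice of all groups had high-fat diet again from the day after surgery. Each group contributed 4 mice, 1 library a mouse, chosen from larger surgical groups of singly housed animals. Whole liver pieces were sequenced as poly(A) RNA, and 15122520 to 19384076 reads per library were counted on genes. Levels are given as CPM, counts scaled to library size with TMM factors, and differences as log2 fold changes from edgeR with their standard errors (SE). A difference was called at a Benjamini-Hochberg adjusted p under 0.05 over all 13054 genes.

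Libraries are named by animal: 3F, 4F, 6F and 10F were Sham-Ad lib, 2F, 9F, 15F and 16F were Sham-WM, and 1F, 8F, 11F and 18F were VSG. A second label field pairs the sample titles with libraries of other animals, and grouping by that field called 0 genes with edgeR in each of the 3 comparisons, with 715 genes at an unadjusted p under 0.05 between the sham groups, 465 for VSG against Sham-Ad lib and 158 for VSG against Sham-WM. The index numbers in the library names run in 1 block per group, so a batch that follows them cannot be told apart from the groups. Hepatocyte markers (7 genes, Alb and Apob among them) summed to 109944 to 126021 CPM in Sham-Ad lib, to 123812 to 154475 in Sham-WM and to 86303 to 125141 in VSG, where 1F, 8F and 11F lay below all other libraries. Between VSG and Sham-WM 2 of the 7 were called lower, Alb (log2 fold change -0.73, edgeR adjusted p = 0.0294) and Cps1 (-0.83, adjusted p = 0.0174), and 1 higher, Fgb (1.15, adjusted p = 0.00453). Of all tested genes 11.9% were called lower and 15.0% higher in that comparison. Markers of adipocytes and pancreas summed to at most 0.171 CPM. Summed neutrophil markers (5 genes) ranged from 0.595 to 10.9 CPM in Sham-Ad lib, from 1.46 to 2.34 in Sham-WM and from 18.3 to 613 in VSG. Kupffer cell markers (6 genes) ranged from 113.5 to 376, from 104.2 to 183 and from 389 to 1118 CPM, and acute phase genes (10 genes) from 3854 to 23215, from 3358 to 5032 and from 6336 to 55294 CPM. The part of these cells and genes in the differences below was not tested, and in bulk liver fewer cells of a type and less RNA per cell cannot be told apart.

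Of the 10 genes, Mup20 and Stat5a passed the test in a comparison. Mup20 was 4.11-fold higher after VSG than in weight-matched sham mice, and Stat5a was 1.35-fold higher in Sham-WM than in Sham-Ad lib mice. The receptor, Stat5b, Igf1 and Igfals passed no test in any of the 3 comparisons. Socs2 and Cish varied more within groups than most genes of the liver.

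In Sham-WM against Sham-Ad lib mice, 1 of the 10 genes was called (Stat5a, higher), where 6.99% of all tested genes were called, 3.53% higher and 3.45% lower. The groups did not overlap for 3 of the 10 (Stat5a, Cish and Mup20), against 17.6% of all tested genes. In VSG against Sham-WM mice 1 of the 10 was called (Mup20, higher) and 1 did not overlap, against 26.9% of all tested genes called (15.0% higher, 11.9% lower) and 26.2% without overlap. In VSG against Sham-Ad lib mice 0 of the 10 were called by edgeR and 0 by DESeq2, 1 had an unadjusted p under 0.05 (Igfbp2), and 0 were without overlap, against 0.751% of all tested genes called (0.467% higher, 0.283% lower) and 9.21% without overlap. Of all 13054 tested genes, 2814 had an unadjusted p under 0.05 in edgeR in Sham-WM against Sham-Ad lib, 5268 in VSG against Sham-WM and 3149 in VSG against Sham-Ad lib. The median log2 fold change of the 10 genes was 0.26, -0.18 and 0.15 in these 3 comparisons, and that of all tested genes 0.00079, 0.03 and 0.03. The comparisons share libraries, so their values are given side by side and are not independent of each other.

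**Figure D1:**
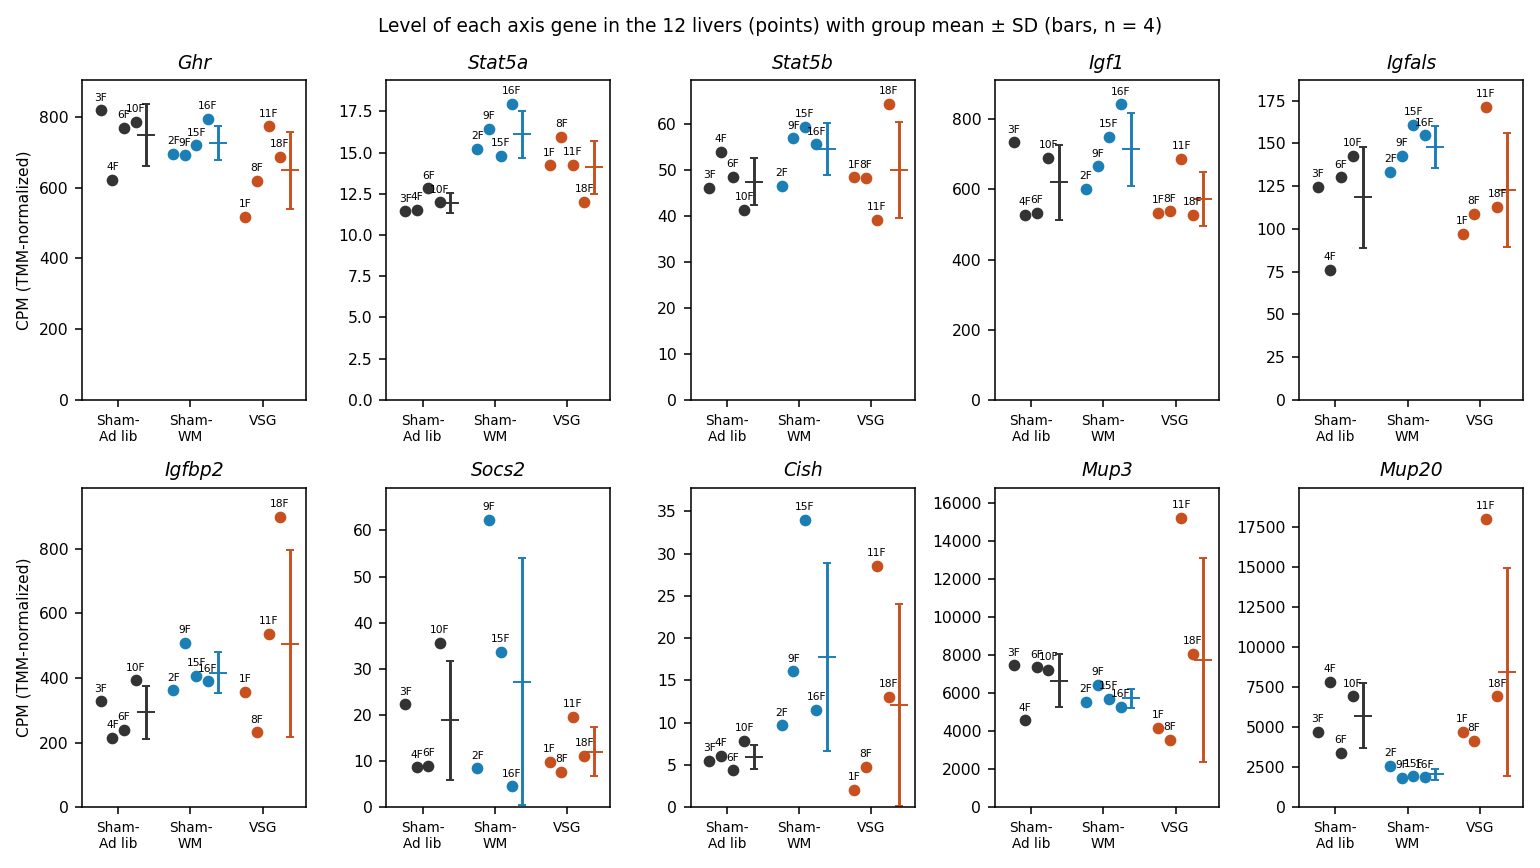
Level of each of the 10 axis genes (CPM after TMM normalization, linear axis from 0) in each liver, with the animal number beside each point and a bar for the group mean ± SD (n = 4). The 4 Sham-WM livers lie between 1849 and 2576 CPM for Mup20, under every liver of the other groups, and animal 11F stands high for Mup3, Mup20 and Cish.

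**Figure D2:**
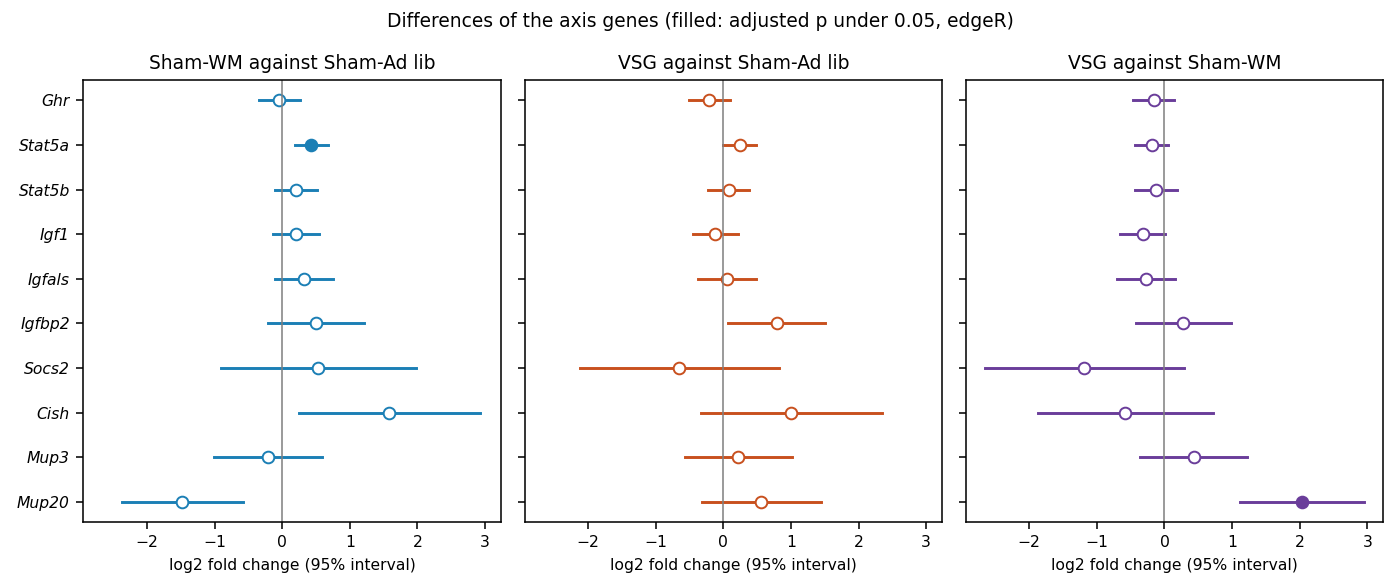
Log2 fold change of each axis gene in the 3 comparisons (points) with its 95% interval from the edgeR fit (lines), filled where the adjusted p was under 0.05. Stat5a in Sham-WM against Sham-Ad lib (0.43) and Mup20 in VSG against Sham-WM (2.04) are the filled points, and the intervals of Socs2 and Cish are the widest.

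Ghr, the cell surface receptor that binds growth hormone, lies on mm10 chromosome 15 from 3317760 to 3583492, on the minus strand (ENSMUSG00000055737). Its level was 818, 621, 769 and 786 CPM in Sham-Ad lib livers 3F, 4F, 6F and 10F. Sham-WM livers 2F, 9F, 15F and 16F held 696, 691, 719 and 794 CPM, and VSG livers 1F, 8F, 11F and 18F held 517, 619, 773 and 686 CPM. All groups overlapped, and their means were 749 ± 87.3, 725 ± 47.8 and 649 ± 107.9 CPM (SD, n = 4). The log2 fold change of VSG against Sham-Ad lib was -0.21 with a 95% interval from -0.51 to 0.10, and that of Sham-WM against Sham-Ad lib -0.05 with an interval from -0.35 to 0.26. Neither passed the test, and both intervals hold changes in both directions.

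Stat5a and Stat5b are closely related transcription factors that lie side by side on chromosome 11, Stat5b from 100780731 to 100850724 on the minus strand (ENSMUSG00000020919) and Stat5a from 100859351 to 100885169 on the plus strand (ENSMUSG00000004043). Stat5b is the form that carries most of the growth hormone response in male liver. Per kilobase of exon (all annotated exons joined) it had the higher level in all 12 libraries, with a ratio of Stat5b to Stat5a of 4.39 ± 0.572 in Sham-WM, 4.69 ± 1.52 in VSG and 5.14 ± 0.663 in Sham-Ad lib mice (SD, n = 4). Stat5b was at 46.2, 53.9, 48.6 and 41.4 CPM in Sham-Ad lib, at 46.5, 56.9, 59.4 and 55.6 in Sham-WM and at 48.5, 48.4, 39.2 and 64.4 in VSG livers, in the order of animals above. All groups overlapped, and none of its 3 comparisons was called (lowest adjusted p 0.465, edgeR).

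Stat5a was at 11.44, 11.54, 12.82 and 11.98 CPM in Sham-Ad lib livers and at 15.24, 16.43, 14.79 and 17.95 CPM in Sham-WM livers. Every Sham-WM liver lay above every Sham-Ad lib liver, and the log2 fold change was 0.43 (SE 0.11, edgeR adjusted p = 0.0355; exact permutation test, two-sided, p = 0.0286, the smallest that 4 against 4 can give). VSG livers held 14.22, 15.93, 14.24 and 12.002 CPM, between the other groups and overlapping both. Their log2 fold changes were 0.24 (SE 0.11, adjusted p = 0.214) against Sham-Ad lib and -0.19 (SE 0.11, adjusted p = 0.217) against Sham-WM. Stat5a was among the steadier genes of these livers: its SD of log2 CPM within groups, 0.128, was at the 9.00th percentile of all tested genes. The call did not hold when any 1 of the 8 libraries compared was left out, with adjusted p-values from 0.0580 to 0.121 and log2 fold changes from 0.38 to 0.47, and without a filter on low counts the adjusted p was 0.117. Stat3, a related gene with a mean of 2363 counts, overlaps 72 exon bases of Stat5a on the opposite strand, and whether the counting used strand is not given in the sources used here. Stat3 itself was lower by 0.20 in the same comparison on the log2 scale, uncalled (adjusted p = 0.688).

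Igf1, the growth factor that liver releases into the blood under growth hormone control, lies on chromosome 10 from 87858265 to 87937042 on the plus strand (ENSMUSG00000020053). Its level was 734, 528, 532 and 690 CPM in Sham-Ad lib, 601, 666, 750 and 842 CPM in Sham-WM and 533, 538, 687 and 528 CPM in VSG livers. The highest liver was 16F of Sham-WM, and all groups overlapped. The log2 fold change of VSG against Sham-WM was -0.32 (SE 0.16, 95% interval from -0.66 to 0.01, edgeR adjusted p = 0.139). Against Sham-Ad lib it was 0.20 for Sham-WM and -0.12 for VSG, both with an SE of 0.16, and neither was called.

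Igfals encodes the acid-labile subunit, which holds IGF-1 in a long-lived complex with a binding protein, and lies on chromosome 17 from 24865997 to 24882010 on the plus strand (ENSMUSG00000046070). Its level was 125, 76.0, 130 and 143 CPM in Sham-Ad lib, 133, 143, 161 and 155 CPM in Sham-WM and 97.1, 108.8, 172 and 113.1 CPM in VSG livers. Within Sham-Ad lib, animal 4F lay apart at the low end. The group means of 118 ± 29.3, 148 ± 12.2 and 123 ± 33.3 CPM (SD, n = 4) did not differ by the test, with log2 fold changes of 0.32 (SE 0.20) for Sham-WM and 0.05 (SE 0.20) for VSG against Sham-Ad lib.

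Igfbp2, a soluble binding protein that holds IGFs in the circulation, lies on chromosome 1 from 72824503 to 72852474 on the plus strand (ENSMUSG00000039323). It was at 328, 214, 239 and 393 CPM in Sham-Ad lib, at 361, 509, 407 and 389 CPM in Sham-WM and at 358, 232, 536 and 898 CPM in VSG livers. VSG livers spread over a 3.87-fold range, from 8F at the bottom to 18F at the top, and Sham-WM livers over a 1.41-fold range. The log2 fold change of VSG against Sham-Ad lib was 0.79 (SE 0.33, 95% interval from 0.07 to 1.499), but its adjusted p was 0.172 in edgeR and the groups overlapped (exact permutation test, two-sided, p = 0.257). Sham-WM against Sham-Ad lib gave 0.51 (SE 0.33, adjusted p = 0.416). The difference between VSG and Sham-WM, 0.28, became -0.15 when 18F was left out.

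Of the other IGF ligands, receptors, binding proteins and proteases, 11 of 16 listed genes were tested. With edgeR 0 were called against Sham-Ad lib in either weight loss group, and DESeq2 called 0 too, with 4 (VSG) and 2 (Sham-WM) at an unadjusted p under 0.05 in edgeR. Of all 13054 tested genes, 3149 (VSG) and 2814 (Sham-WM) had an unadjusted p under 0.05. Between VSG and Sham-WM 1 of the 11 was called, against 26.9% of all tested genes, or 2 without 8F or with DESeq2. The gene called by edgeR was Adamts1, which encodes a secreted metalloproteinase of the extracellular matrix. Its level lay between 4.44 and 8.02 CPM in VSG and between 9.91 and 18.0 CPM in Sham-WM livers, without overlap, with a log2 fold change of -1.15 (SE 0.27, edgeR adjusted p = 0.00943). The median log2 fold change of the 11 genes was -0.13 in that comparison, against 0.03 over all tested genes.

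Socs2 and Cish are direct STAT5 target genes whose proteins bind the activated receptor and damp its signal, and their RNA can rise and fall with hormone pulses. Growth hormone was not measured here, and the source of the spread of these genes was not tested. They were the least steady of the 10 genes. The within-group SD of log2 CPM was 1.199 for Socs2 and 1.07 for Cish, at the 99.3th and 98.9th percentile of all tested genes, whose median was 0.262. The spread of Cish was uneven, 1.79-fold in Sham-Ad lib and 14.1-fold in VSG livers. Counts were low in some livers, with 34 for Cish in 1F and 81 for Socs2 in 16F.

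Socs2 lies on chromosome 10 from 95385362 to 95417180 on the minus strand (ENSMUSG00000020027). It was at 22.3, 8.64, 8.93 and 35.6 CPM in Sham-Ad lib, at 8.46, 62.3, 33.7 and 4.56 CPM in Sham-WM and at 9.80, 7.71, 19.7 and 11.1 CPM in VSG livers. Sham-WM held both the highest and the lowest of the 12 livers, 13.7-fold apart. No comparison was called: the log2 fold change of VSG against Sham-WM was -1.19 with an SE of 0.68 and an adjusted p of 0.210 in edgeR, and that of Sham-WM against Sham-Ad lib was 0.54 with a 95% interval from -0.90 to 1.97. Without animal 9F they became -0.38 and -0.27, and over all fits without 1 library the first ran from -1.54 (without 16F) to -0.38.

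Cish lies on chromosome 9 from 107296026 to 107302784 on the plus strand (ENSMUSG00000032578). It was at 5.47, 6.12, 4.38 and 7.84 CPM in Sham-Ad lib and at 9.68, 16.1, 34.0 and 11.5 CPM in Sham-WM livers. Every Sham-WM liver was above every Sham-Ad lib liver, with a log2 fold change of 1.58 (SE 0.62; exact permutation test, two-sided, p = 0.0286), but the adjusted p was 0.150 in edgeR when all 3 groups shared 1 estimate of spread. A fit of the 8 libraries alone gave an adjusted p of 0.0253. VSG livers ranged from 2.03 CPM in 1F and 4.75 in 8F to 13.0 in 18F and 28.5 in 11F, a 14.1-fold spread that covered the whole Sham-Ad lib range. Exons of Cish overlap the antisense gene models Gm17040 and Gm17041 by 261 and 479 bases, and these had a mean of 6.0 and 0.0 counts.

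STAT5 binds the sequence TTCNNNGAA, which reads the same on both strands and was searched as such in RefSeq promoter windows of 300 bases on GRCm38.p6, from 250 bases before to 50 after each listed start. Windows were found for 8 of the 10 genes, not for Socs2 or Mup20. The motif stood in a window of 2 of the 8 genes, Cish and Igfals, against 9.554% of all genes with a window, and in 3 of the 14 windows of the 8 genes, against 8.298% of all 32851. Both stretches are shown because Cish and Igfals are known STAT5 targets measured here, with the motif in capitals. The Cish stretch, with 2 copies 11 bases apart that begin at the listed start, is chr9:107296654-107296683 on the plus strand. It lies inside the GENCODE span of the gene, which starts upstream at 107296026. The Igfals stretch is chr17:24878131-24878210 on the plus strand, with its copy beginning 58 bases before a listed start. Another Igfals window, of an earlier start, holds a further copy that is not shown.
Cish: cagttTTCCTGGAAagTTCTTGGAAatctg
Igfals: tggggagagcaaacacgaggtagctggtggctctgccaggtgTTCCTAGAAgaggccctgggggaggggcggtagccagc
Binding was not measured. For Sham-WM against Sham-Ad lib the log2 fold change of Cish was 1.58 and that of Igfals 0.32, and neither was called.

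In each group, the liver with the highest Socs2 also held the most Hsd3b5 and Mup7, a description of genes chosen after their values were seen. In Sham-Ad lib, animals 3F and 10F had the higher Socs2. Hsd3b5, a steroid dehydrogenase gene of male mouse liver, was at 163 CPM in 3F and 228 in 10F but at 30.4 in 4F and 19.5 in 6F. Mup7 was at 3768 CPM in 3F and 4678 in 10F but at 971 in 4F and 816 in 6F. In Sham-WM, animal 9F led, with Hsd3b5 at 162 CPM and Mup7 at 2178 CPM, but 15F, next in Socs2, lay under 2F in both. In VSG, animal 11F led, with Hsd3b5 at 130 CPM and Mup7 at 11240 CPM. Other male-biased liver genes did not all follow, and how many did was not counted. Slco1a1 was highest in 3F of Sham-Ad lib (599 CPM, 442 in 10F) and in 18F of VSG (298, 281 in 11F). Serpina1e was highest in 8F of VSG (9519 CPM, 3954 in 11F), and both genes were highest in 9F of Sham-WM. Mup7 shares most of its sequence with other Mup genes, as given below. A link between these genes was not tested.

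The Mup genes on chromosome 4 encode small carrier proteins that the liver secretes and the urine excretes, where they bind and release scents. Mup20 encodes darcin, a male pheromone, and lies from 62050234 to 62054158 on the minus strand (ENSMUSG00000078672). Mup3 lies beside it from 62083476 to 62087342 on the same strand (ENSMUSG00000066154). The family is so alike that reads of many members cannot be told apart. In the GENCODE transcripts, 0 of 829 windows of 100 bases in Mup20 and 26 of 1165 in Mup3 (2.23%) occurred in another Mup gene, so at this length these genes share little or nothing. Mup21 was also low, at 4.50%. In the other tested Mup genes the share ran from 55.7% (Mup1) to 100% (Mup19), with 59.4% for Mup17, 74.9% for Mup7, 87.1% for Mup18 and 97.3% for Mup15. Values of all those genes are uncertain. The last 60 coding bases of the first exon show the likeness, with capitals where a gene differs from Mup20 on the reading strand, the minus strand of mm10. The stretches are chr4:62053951-62054010 for Mup20, chr4:62087124-62087183 for Mup3, chr4:61595665-61595724 for Mup17 and chr4:61673927-61673986 for Mup18.
Mup20: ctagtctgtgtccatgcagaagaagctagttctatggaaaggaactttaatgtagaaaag
Mup3: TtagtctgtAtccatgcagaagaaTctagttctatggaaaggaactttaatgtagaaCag
Mup17: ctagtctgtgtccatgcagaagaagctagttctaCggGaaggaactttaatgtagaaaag
Mup18: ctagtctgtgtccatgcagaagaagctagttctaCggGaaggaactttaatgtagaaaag
Mup3 differs from Mup20 at 4 of these bases, and Mup17 and Mup18 at the same 2 positions.

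Mup20 was at 4718, 7824, 3410 and 6916 CPM in Sham-Ad lib, at 2576, 1849, 1927 and 1863 CPM in Sham-WM and at 4696, 4147, 17993 and 6919 CPM in VSG livers. The Sham-WM livers formed a narrow low group under every liver of both other groups. VSG against Sham-WM gave a log2 fold change of 2.04 (SE 0.42, edgeR adjusted p = 0.00507), a 4.11-fold difference (exact permutation test, two-sided, p = 0.0286). Animal 11F was far above the rest, and without it the log2 fold change was 1.36 with an adjusted p of 0.00534. With each of the 12 libraries left out in turn the call stood in all 12 fits, at log2 fold changes from 1.36 to 2.24, but with 2 RUVs factors 0 of the 10 genes were called in that comparison.

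Against Sham-Ad lib, Mup20 in Sham-WM livers had a log2 fold change of -1.48 (SE 0.42), a 2.78-fold lower level without overlap (exact permutation test, two-sided, p = 0.0286). Its edgeR adjusted p of 0.05002 lay just above the threshold, and the 6 other normalizations, filters and fits gave from 0.00665 to 0.0492. With each of the 12 libraries left out in turn, it was called in 3 of 12 fits. The adjusted p-values of those 12 edgeR fits ran from 0.00461 to 0.140, at log2 fold changes from -1.66 to -1.29. VSG and Sham-Ad lib livers overlapped, with a log2 fold change of 0.56 (SE 0.41, adjusted p = 0.411) that became -0.13 without 11F.

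Mup3 was at 7467, 4578, 7371 and 7240 CPM in Sham-Ad lib, at 5547, 6454, 5718 and 5294 CPM in Sham-WM and at 4172, 3568, 15230 and 8060 CPM in VSG livers. All groups overlapped. No comparison was called: the log2 fold change of VSG against Sham-WM was 0.43 (SE 0.37, edgeR adjusted p = 0.402) and became -0.13 without 11F. The ratio of Mup20 to Mup3 counts was 0.360 ± 0.0751 in Sham-WM, 1.08 ± 0.151 in VSG and 0.940 ± 0.552 in Sham-Ad lib mice (SD, n = 4). In Sham-WM livers it lay between 0.286 and 0.464 and in VSG livers between 0.858 and 1.18, without overlap, while 6F of Sham-Ad lib, at 0.463, lay inside the Sham-WM range.

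All 21 Mup genes in the table took 1.30 ± 0.235% of all counts in Sham-WM, 2.15 ± 0.565% in Sham-Ad lib and 3.08 ± 2.20% in VSG livers (SD, n = 4), with 6.26% in 11F. Of the other Mup genes, 16 of 20 listed were tested. In VSG against Sham-WM 7 of the 16 were called higher and 0 lower, against 15.0% and 11.9% of all tested genes, and all 16 had a positive log2 fold change with a median of 1.60. Most of the 16 share sequence with each other, so they are not separate measurements. Without 15F 2 were called, without 11F 3, without 16F 4 and without 8F 11. The smallest adjusted p-values belonged to Mup18 (log2 fold change 3.93, SE 0.79, edgeR adjusted p = 0.00427), Mup17 (4.36, SE 0.99, adjusted p = 0.00761) and Mup15 (4.22, SE 1.14, adjusted p = 0.01705). Mup18 was low, between 0.408 and 1.53 CPM in Sham-WM and between 2.55 and 38.9 CPM in VSG livers. For Mup15 the groups overlapped. In Sham-WM against Sham-Ad lib edgeR called 0 of the 16, of which 15 had a negative log2 fold change with a median of -1.02. DESeq2 called 2 of them lower, 3 had an unadjusted p under 0.05 in edgeR, and 3 were called lower without 11F and 1 without 8F. In VSG against Sham-Ad lib 0 of the 16 were called by edgeR and by DESeq2, 1 had an unadjusted p under 0.05, and the median was 0.79. Of all 13054 tested genes, 2814 (Sham-WM) and 3149 (VSG) had an unadjusted p under 0.05 against Sham-Ad lib in edgeR.

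**Figure D3:**
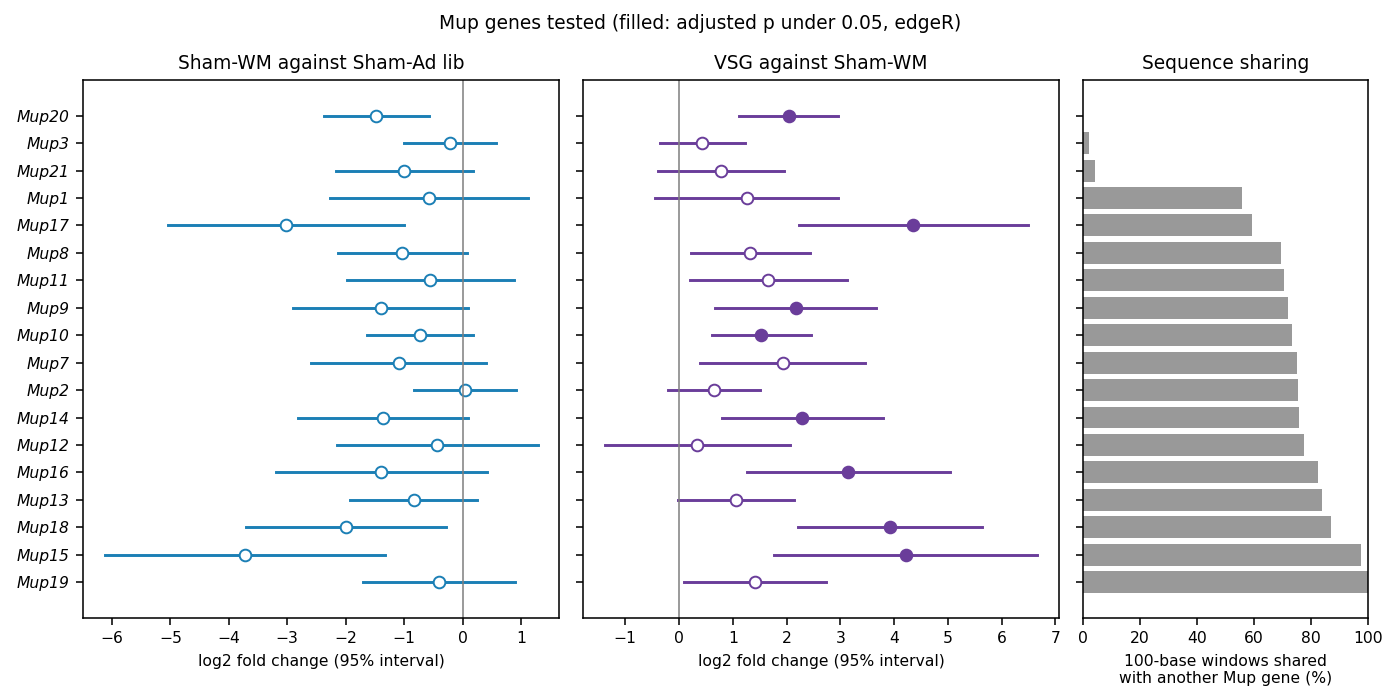
Log2 fold change of the 18 tested Mup genes in Sham-WM against Sham-Ad lib (left) and VSG against Sham-WM (middle), with 95% intervals from the edgeR fit and filled points where the adjusted p was under 0.05, and the percent of 100-base windows of each gene's transcripts found in another Mup gene (right). Mup20, at 0% shared, is the called gene with none, and the other called genes share from 59.4% to 97.3% of their windows.

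Of 22 genes of receptor signalling and feedback outside the 10, 21 were tested. With edgeR 0 were called in either comparison with Sham-Ad lib, and DESeq2 called 0 (VSG) and 1 (Sham-WM). At an unadjusted p under 0.05 in edgeR were 5 for VSG and 1 for Sham-WM, against 3149 and 2814 of all 13054 tested genes. For VSG, 1 was called without 4F and without 18F, and for Sham-WM 1 without 11F. Jak2, the kinase bound to the receptor, had log2 fold changes of -0.12 for VSG and -0.19 for Sham-WM. In VSG against Sham-WM 2 of the 21 were called higher and 4 lower, a share near that of all tested genes (15.0% and 11.9%), with a median log2 fold change of -0.02, and without 11F or without 16F 3 were called in all. The higher ones were Ptpn6, a phosphatase of blood cells that dephosphorylates cytokine receptors (log2 fold change 0.80, SE 0.18, adjusted p = 0.00664), and Socs3, a feedback inhibitor of IL-6 and growth hormone signals (1.78, SE 0.58, adjusted p = 0.0365). Socs3 ranged from 9.04 to 27.5 CPM in VSG and from 4.08 to 8.72 CPM in Sham-WM livers. Sham-Ad lib livers spread from 3.96 to 29.3 CPM, and 4F of that group held the highest Socs3 of all 12 livers. The neutrophil, Kupffer cell and acute phase sums given above were also higher in every VSG liver than in every Sham-WM liver. Called higher were 4 of 4 tested neutrophil markers, 6 of 6 Kupffer cell markers and 9 of 10 acute phase genes, against 15.0% of all tested genes.

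The lower ones included Irs1, an adaptor of the insulin and IGF-1 receptors (log2 fold change -1.70, SE 0.39, adjusted p = 0.00829), and Onecut1, a liver transcription factor known to respond to growth hormone (-1.91, SE 0.48, adjusted p = 0.0123). Irs1 lay between 1.51 and 6.996 CPM in VSG and between 9.06 and 21.2 CPM in Sham-WM livers. Prlr, the prolactin receptor, was lower by 0.65 on the log2 scale with overlap of the groups (SE 0.20, adjusted p = 0.0327).

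Genes that respond to the rhythm of growth hormone are listed by the sex in which liver expresses them more strongly. In VSG against Sham-WM the median log2 fold change was 0.45 for 17 male-biased genes (12 positive, 5 negative) and -1.54 for 11 female-biased genes (3 positive, 8 negative), against 0.03 for all tested genes. In Sham-WM against Sham-Ad lib the medians were -0.39 (4 positive, 13 negative) and -0.21 (5 positive, 6 negative), and in VSG against Sham-Ad lib -0.14 (6 positive, 11 negative) and -1.75 (1 positive, 10 negative). Of the 17 male-biased genes, 1 was called in Sham-WM against Sham-Ad lib (2 without 6F, 8F or 9F, 3 without 11F), against 6.99% of all tested genes. In VSG against Sham-Ad lib 0 were called with edgeR, 1 without 4F and 1 with DESeq2. An unadjusted p under 0.05 in edgeR was found for 3 of the 17, against 3149 of all 13054 tested genes. In VSG against Sham-WM 3 were called higher and 1 lower, no larger a share than the 26.9% of all tested genes, and without 2F, 11F, 15F or 16F 2 were called in all. Elovl3, a fatty acid elongase, was at 136 to 321 CPM in Sham-WM, at 35.6 to 62.0 CPM in Sham-Ad lib and at 27.5 to 35.4 CPM in VSG livers. Its log2 fold change was 2.20 (SE 0.24, edgeR adjusted p = 0.000200) for Sham-WM against Sham-Ad lib and -2.83 (SE 0.24, adjusted p = 3.1e-05) for VSG against Sham-WM. The genes called higher in VSG than in Sham-WM livers were Bcl6, a repressor that opposes STAT5 (2.33, SE 0.58, adjusted p = 0.0119), Ugt2b38 (2.03, SE 0.63, adjusted p = 0.0315) and Scara5 (2.81, SE 0.98, adjusted p = 0.0486), for which the groups overlapped. Bcl6 was at 72.4 and 88.7 CPM in 1F and 8F and at 15.2 and 12.7 in 11F and 18F, all above the Sham-WM range of 6.45 to 11.3 CPM. Sham-Ad lib livers, at 11.97 to 44.4 CPM, also lay above that range and overlapped VSG livers. Ugt2b38 was at 0.541 to 3.64 CPM in Sham-Ad lib, at 0.281 to 0.512 in Sham-WM and at 0.562 to 2.86 in VSG livers. Against Sham-Ad lib, the log2 fold changes of Bcl6, Ugt2b38 and Scara5 were 0.69, -0.06 and 0.60 for VSG. For Sham-WM they were -1.64, -2.09 and -2.22, and none of these differences was called.

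Of 20 female-biased genes, 11 were tested, and in VSG against Sham-WM 2 were called higher and 5 lower, against 15.0% and 11.9% of all tested genes, where leaving out 1F gave 3 calls in all and leaving out 8F, 15F or 16F gave 4. Cyp17a1, a steroid hydroxylase, was the 1 of the 11 called in Sham-WM against Sham-Ad lib (2 without 6F), where 6.99% of all tested genes were called. It was at 10.8 to 16.8 against 40.0 to 50.5 CPM (log2 fold change -1.65, SE 0.34, edgeR adjusted p = 0.0115). It was higher in VSG than in Sham-WM livers (1.23, SE 0.34, adjusted p = 0.0179), although 11F, at 10.6 CPM, lay below all Sham-WM livers. Sult1e1, an estrogen sulfotransferase, was higher too (2.91, SE 0.97, adjusted p = 0.0417), at 0.626 to 8.54 against 0.113 to 0.510 CPM. Fmo2, a flavin monooxygenase (-1.29, SE 0.30, adjusted p = 0.00830), Cyp4a14, a fatty acid hydroxylase (-2.91, SE 0.70, adjusted p = 0.00972), and Cyp2c40, a cytochrome P450 (-1.63, SE 0.48, adjusted p = 0.0244), were the 3 lower genes with the smallest adjusted p-values. Cyp2c40 was rare, between 0.204 and 0.478 CPM in VSG and between 0.713 and 1.74 CPM in Sham-WM livers. In VSG against Sham-Ad lib edgeR called 0 of the 11, with 6 at an unadjusted p under 0.05, and DESeq2 called 3, as 2 were without 4F and 1 without 18F in edgeR. Of all 13054 tested genes, 3149 had an unadjusted p under 0.05 in that comparison in edgeR.

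**Figure D4:**
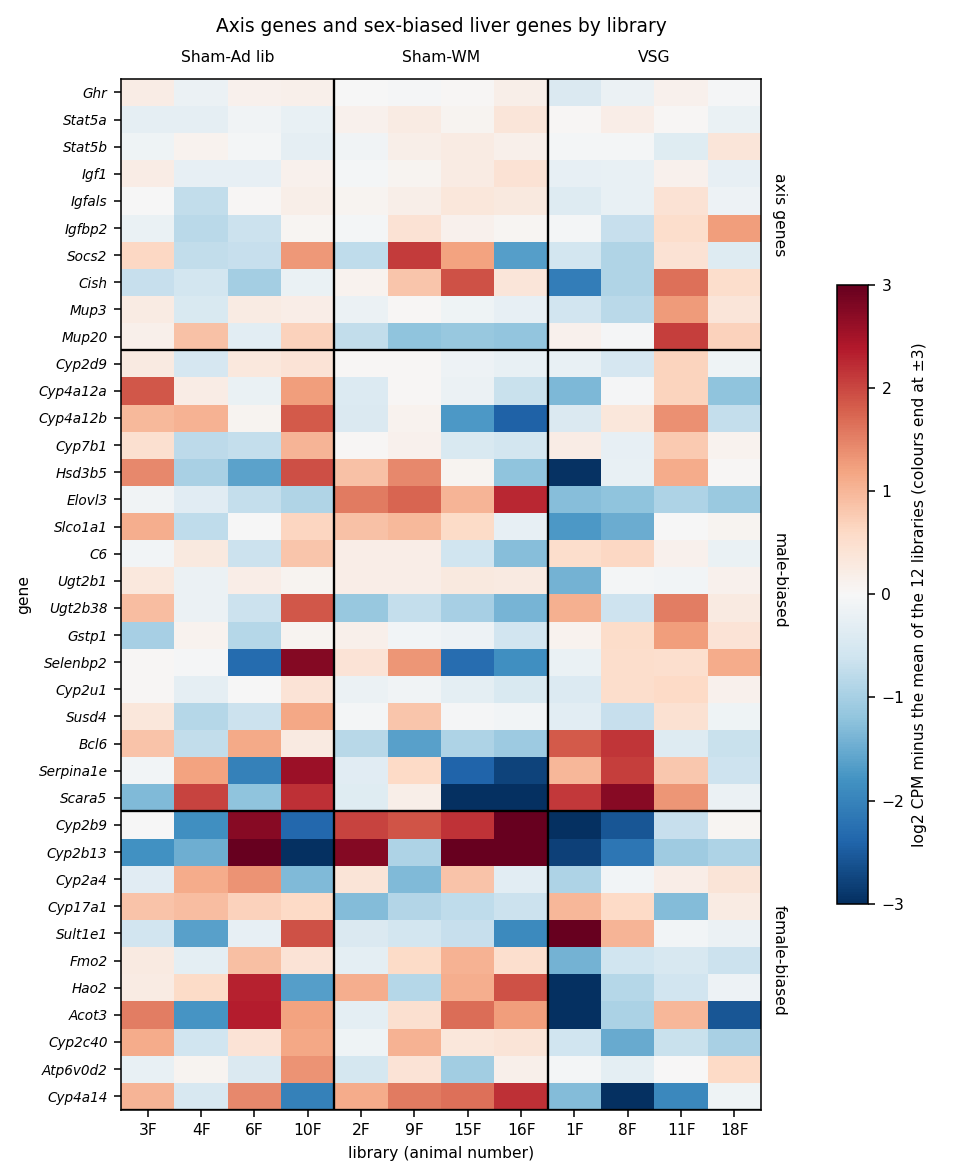
Log2 CPM of the 10 axis genes and the tested male-biased and female-biased genes (rows) in each of the 12 libraries (columns, by group), minus each gene's mean over the libraries; colours end at -3 and 3. Mup20 is low and Elovl3 high in all 4 Sham-WM livers, and Socs2 and Cish differ between livers of the same group.

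Per kilobase of exon, the order of the mean levels over 12 libraries was Mup3 (6297 CPM per kilobase), Mup20 (5822), Igfbp2 (219), Ghr (78.1), Igf1 (64.2), Igfals (40.9), Stat5b (9.16), Socs2 (2.04), Stat5a (1.97) and Cish (1.86). Exon length was that of all annotated exons of a gene joined, so the order depends on the annotation. The steps from Mup20 down to Socs2 held in 12 of 12 libraries. Neighbours that changed places were Mup3 and Mup20, in this order in 7 of 12 libraries, Socs2 and Stat5a, in 5 of 12, and Stat5a and Cish, in 8 of 12.

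For the 5 genes whose log2 CPM had an SD over 0.5 in the 12 libraries, the tested genes with the most similar pattern were found by the root mean square (RMS) difference of centred log2 CPM. Nearest to Mup20 were Neat1 (RMS 0.39), Psmb9 (0.45) and Zfas1 (0.46). Mup3 had the smallest RMS, with Gstt2 (0.14), then Cela1 (0.21) and Rmdn1 (0.26), and Igfbp2 was nearest to Slc22a7 (0.29), Gm15746 (0.36) and Cyp2c70 (0.37). Socs2 and Cish had larger values: the closest were Serpine2 (0.69), E2f8 (0.72) and Susd4 (0.73) for Socs2, and Gsta4 (0.66), Gbp11 (0.69) and Ccdc141 (0.72) for Cish. The RMS depends on a gene's own SD, so its size does not rank the 5 genes by how close their matches are. The SD was 1.12 for Socs2, 1.15 for Cish, 0.996 for Mup20, 0.577 for Igfbp2 and 0.544 for Mup3.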

How the data were processed

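Liver poly(A) RNA of 12 mice was sequenced, and the authors aligned reads to mm10 with TopHat2 (2.1.1) and counted them on genes with featureCounts, per the labels. The deposited values are whole-number counts, not normalized; annotation release and strand setting are not given in the sources used here. Symbols and positions came from GENCODE M21, which lacked 849 of 46078 identifiers. Columns were mapped by the animal number that library name and sample title share.

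R 4.3.3 with edgeR 4.0.16 and limma 3.58.1 was used: filterByExpr (minimum count 10, minimum total 15), TMM factors (0.879 to 1.04), 3 group means over all 12 libraries and the quasi-likelihood test. Log2 CPM used a prior count of 2. The exact test took all 70 assignments. DESeq2 1.42.0, its size factors, upper quartile factors, 2 other filters, fits of 2 groups, 2 RUV factors (RUVs and RUVr, written from their definitions), the other label field and leaving out each library were alternatives; list counts under these were added after the values were seen. Scripts were tested on simulated data. Reads carried no molecular identifiers, and replicates are separate mice.

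The 10 genes and all lists were chosen with earlier results of these data known. Of each pathway list, genes past the threshold were named, at most the 3 smallest adjusted p-values per direction and comparison; for genes with an SD over 0.5, the 3 of most similar pattern (mean log2 CPM of at least 1) were named. Gene names chosen after values were seen are marked so, and marker sums serve as description. A further gene of the lists is not reported here.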

Additional observations from a re-analysis of the deposited data

Results flagged for a closer look

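Within each group of 4 livers, the highest or lowest value of each axis gene was set against the range of its group, over 30 groups, and 3 stood apart by Dixon's test, which flags about 1 group in 20 by chance. Igf1 in 11F of VSG was at 686.643 CPM, and the nearest VSG liver at 537.828. Mup3 in 4F of Sham-Ad lib was at 4578.48 CPM, and the nearest liver of that group at 7240.08. Mup20 in 2F of Sham-WM was at 2575.77 CPM, and the nearest liver of that group at 1927.4.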

How the results depend on the processing

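No paired analysis was possible because the animal numbers are unique and the groups share none. Counts of called genes are given for VSG first against Sham-Ad lib, then for Sham-WM against Sham-Ad lib, then for VSG compared with Sham-WM, with the axis genes in brackets where their number differed from the reported one: 98, 912 and 3509 genes (0, 1 and 1) as reported. DESeq2 gave 1227, 1404 and 4173 genes (2 axis genes in the second comparison), no filter 628, 789 and 3294, at least 10 counts in every library 0, 922 and 3128 (2 in the second), fits of 2 groups 0, 1399 and 2670 (3 in the second), and the other edgeR normalizations 2 axis genes in the second. Grouping by the second label field gave 0, 0 and 0 genes (0 axis genes in all). With 2 RUVr factors there were 3008, 2187 and 5479 genes (3 axis genes in the second and 2 in the third), and with 2 RUVs factors 6, 1723 and 518 (2 in the second, 0 in the third). Leaving out 1 library gave 0 to 1089, 424 to 1311 and 2196 to 3868 genes, and 0, 0 to 2 and 1 axis genes. The first count was 1089 without 18F, 903 without 4F, 227 without 8F and at most 69 in the other 9 fits.

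Signs turned in uncalled differences only, with the range over fits that left out 1 library: in VSG against Sham-Ad lib, Igfals (-0.17 without 11F, -0.11 without 4F, highest 0.15, and -3.59e-05 without a filter), Stat5b (-0.0696 without 18F, -0.0059 without 10F, highest 0.16), Mup3 (-0.36 without 11F, highest 0.43) and Mup20 (-0.13 without 11F, highest 0.76). In the comparison of the sham groups Ghr ran from -0.13 to 0.00036 (without 3F) and Socs2 from -0.27 (without 9F) to 1.03, and in VSG against Sham-WM Mup3 ran from -0.13 (without 11F) to 0.64 and Igfbp2 from -0.15 (without 18F) to 0.50. Of 540 fits of single genes 510 kept their direction and side of the threshold; the causes of the rest were not tested. With 4 mice a group, the 95% intervals of Socs2 and Cish span over 2 log2 units, and Cish had 34 counts in 1F.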
